A study of Mus musculus with 6 samples.

Results

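The genes described here make, recycle and spend glutathione, or belong to the antioxidant program driven by NRF2. They are Gclc, Gclm, Gss, Gsr, Slc7a11, Nqo1, Hmox1, Txnrd1, Srxn1 and Gpx4. Members were all array probes annotated with one of these 10 symbols, and 12 probes of 9 genes were found, of 31769 probes naming 17865 genes. No probe carried the name Gpx4, so this gene was not analysed here, and 5769 probes had no gene name. The set was chosen on its biology with the log2 ratios of Lmx1a-transfected over control cells in view, that of Gclc among them. Those ratios are therefore given as a description. Where a fit across all probes is counted over the members, the count stands beside the share of all probes and nothing is read from it.

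The cells were MN9D, a mouse dopaminergic line made by fusing embryonic midbrain neurons with neuroblastoma cells. One group was transfected with pcDNA3.1(-) carrying the coding sequence of Lmx1a, a homeodomain factor needed for midbrain dopaminergic neurons to form. It comprised 3 RNA pools, each from 3 dishes. The other was 1 RNA pool from 9 dishes of MN9D cells given empty pcDNA3.1(-), and both groups also received pBluescript SKII(+) as carrier DNA. Each Lmx1a pool was hybridised against the control pool on 2 arrays with the dyes Cy5 and Cy3 exchanged, which gave 6 arrays. Dishes were transfected with a cationic lipid and pooled, so a ratio is an average over cells that did and did not take up the plasmid. In such bulk RNA, fewer cells expressing a gene and less RNA per cell cannot be told apart. The control pool is a single sample, and the spread between control cultures is not part of any error given here.

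Glutathione is a tripeptide built in a pair of steps. Glutamate-cysteine ligase, a catalytic subunit (Gclc) with a modifier subunit (Gclm), joins glutamate to cysteine, and glutathione synthetase (Gss) adds glycine. The transcription factor NRF2, encoded by Nfe2l2, is held down by KEAP1 and a CUL3 ubiquitin ligase. When released, it binds antioxidant response elements with small MAF partners and raises many of these genes. Dopaminergic neurons oxidise dopamine and are known for a high oxidative load.

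The transfected gene was the check of the labels. The log2 ratio of Lmx1a-transfected over control cells was 2.49 ± 0.68 (SD, n = 3 pools) for Lmx1a, with 0.93 on the dimmest array and at least 2.50 on the other 5. Of 10 dopaminergic markers, Th, Ddc, Slc18a2 and Nr4a2 were detected in at least 1 channel on all 6 arrays, whereas Slc6a3, Pitx3, Foxa2 and Aldh1a1 were detected in neither channel of any array. Detected means a spot mean more than 2 background standard deviations above the background median. Median background-subtracted brightness of an array lay between 12.9 and 42.4 units in Cy5 and between 9.02 and 20.7 in Cy3. The dimmest array was that of replicate 1 with Lmx1a RNA in Cy3. Between 9 and 11 of the 12 member probes were detected on each array, and 8 of 12 were detected on all 6, against 44.9% of all probes.

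The 12 probes stayed close to a ratio of 1. The member furthest from it was Gclc, with 9.66% more signal in Lmx1a-transfected cells. In the processing described below, none of the 12 probes reached a 1.1-fold difference in either direction, against 1.51% of all probes. That count depends on the processing. Among other cases, Gclc probe A passed 1.1-fold with plain background subtraction (log2 ratio 0.17) and with median centring (0.16). Srxn1 probe B passed it with plain background subtraction (0.145). The share of all probes passing it under those settings was not counted. The median log2 ratio over the 9 genes, with the brightest probe of each, was 0.010, and 7 of 9 genes lay above 0. Over all genes the median was 0.00093 and 51.5% lay above 0. By pool, the member median was -0.0039, 0.045 and 0.015 in replicates 1, 2 and 3, so it did not keep 1 sign. With the 6 genes whose brightest probe was detected on all 6 arrays, the median was 0.035, and 4 of 6 lay above 0.

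The next counts place the members against all probes. All use the contrast that was in view when the members were proposed. In the limma fit of the 3 pools, 0 of 12 member probes were called at an adjusted p under 0.05, against 0% of all probes. That fit did not call Lmx1a itself, whose limma adjusted p of 0.0779 equalled the smallest of all probes. Its 0 calls therefore do not show that a gene stayed unchanged. At an unadjusted p under 0.05 the same fit gave 3 member probes higher in Lmx1a-transfected cells and 0 lower, against 6.23% and 5.56% of all probes. In the fit of the 6 arrays with the pool as a replicate block and a dye term, 1 of 12 member probes was called. It was the Gclc probe named A below, and 1.05% of all probes were called. Without the dimmest array 0 of 12 were called, and the mean log2 ratio of that probe was then 0.14, beside 0.13 with all 6 arrays. The ratio was above 0 on all 6 arrays for 3 member probes, both of Gclc and that of Gclm, against 2.66% of all probes, and below 0 on all 6 for 0, against 2.61%. The same 3 probes were the ones above 0 in all 3 pools, against 16.7% of all probes, and 9 of 12 had a mean above 0, against 51%.

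**Figure D1:**
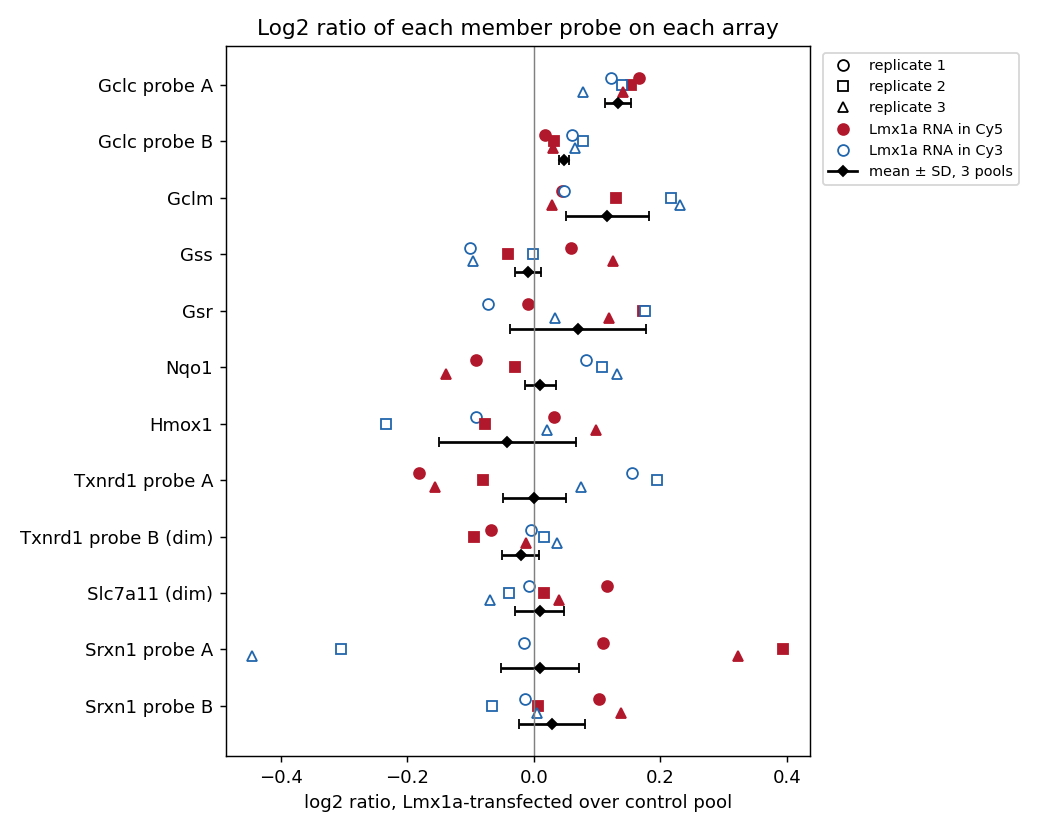
Log2 ratio of Lmx1a-transfected over control cells for each member probe. Points are the 6 arrays, split by the dye of the Lmx1a RNA, and bars are the mean and SD over 3 pools. The mark (dim) is on Txnrd1 probe B and Slc7a11, each detected in at least 1 channel on only 1 of 6 arrays. Nqo1, detected so on 5 of 6, is not marked. Both Gclc probes and Gclm lie above 0 on all 6 arrays, while Srxn1 probe A and Txnrd1 probe A divide by dye.

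Gclc carries the catalytic site of glutamate-cysteine ligase, the rate-limiting enzyme of glutathione synthesis, and 2 probes measured it. Probe A (reporter MMAA200001709) gave log2 ratios of 0.17, 0.15 and 0.14 in replicates 1, 2 and 3 with Lmx1a RNA in Cy5. With Lmx1a RNA in Cy3 it gave 0.12, 0.14 and 0.078. All 6 values were above 0, and the lowest came from replicate 3 rather than from the dimmest array. The mean was 0.13 ± 0.021 (SD, n = 3), which is 9.66% more signal in Lmx1a-transfected cells, and its distance from 0 ranked at the 98.3rd percentile of all probes. Probe A was detected in both channels on all 6 arrays, with net brightness of 56.9 to 453 units in the Lmx1a channel and 99.1 to 399.9 units in the control channel.

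Gclc probe B (reporter MMAA300008206) also lay above 0 on every array but closer to it. Its log2 ratios were 0.017, 0.032 and 0.031 with Lmx1a RNA in Cy5 and 0.060, 0.078 and 0.066 with it in Cy3. The mean was 0.047 ± 0.0081 (SD, n = 3), or 1.03-fold. In brightness 1 array stood apart. Probe B had 368.6 net units in the Lmx1a channel and 185.1 in the control channel on the replicate 1 array that had Lmx1a RNA in Cy5, against 27.1 to 66.6 and 24.6 to 64.9 units on the other 5. Probe A exceeded probe B in every pool, by 0.10, 0.091 and 0.061, a mean difference of 0.086 ± 0.022 (SD, n = 3). The probes shared the direction and differed in size by more than the spread between pools. The background correction used an offset of 50 units, which draws the ratios of dim probes toward 0. With plain background subtraction instead, probe A gave 0.17 and probe B 0.105. How much of the difference in size comes from the offset was not tested. Which stretch of the transcript each probe reads was not analysed here.

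Gclm, the modifier subunit that makes the ligase less sensitive to feedback by glutathione, had a mean close to that of Gclc probe A with a wider spread. Its probe (reporter MMAA200006436) gave 0.044, 0.13 and 0.029 with Lmx1a RNA in Cy5 and 0.047, 0.22 and 0.23 with it in Cy3. The pools averaged 0.046, 0.17 and 0.13 in replicates 1, 2 and 3, so replicate 1 was the low one. The mean of 0.12 ± 0.065 (SD, n = 3) is 8.39% more signal in Lmx1a-transfected cells. Its distance from that of Gclc probe A was smaller than its own SD.

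The promoter windows of these genes were read for the core of the antioxidant response element, TGACNNNGC on either strand. RefSeq windows of GRCm38.p6, from 250 bases before to 50 after a gene start, were matched for 7 of the 10 members, 12 windows in all. Gclc, Gsr and Hmox1 were not matched. The core stood in 3 of the 12 windows, those of Gclm, Srxn1 and 1 of 3 for Txnrd1, against 12.4% of all 32851 windows. By gene this is 3 of the 7 matched members, since Txnrd1 and Gpx4 had several windows, and Gpx4 had no probe. Sequence outside the windows was not searched, so a window without the core does not show that a gene lacks it. The Gclm and Txnrd1 stretches are shown because they hold it upstream of the start in genes whose ratios differed, with Gclm above 0 on all 6 arrays and Txnrd1 not. Capitals mark the core, which lies on the minus strand and so reads here as its complement in reverse.
Gclm, chr3:122245398-122245456 (+): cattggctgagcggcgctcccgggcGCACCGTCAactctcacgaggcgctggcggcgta
Txnrd1, chr10:82859089-82859147 (+): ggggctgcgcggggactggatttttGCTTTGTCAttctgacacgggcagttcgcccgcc
The core begins 134 bases before the Gclm start and 92 bases before that Txnrd1 start. The shared letters describe the windows only, and no window says whether NRF2 binds there.

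The remaining genes of the glutathione cycle showed no common direction. Gss, which completes glutathione, gave 0.058, -0.040 and 0.13 with Lmx1a RNA in Cy5 and -0.10, -0.0014 and -0.096 with it in Cy3. Its mean was -0.0091 ± 0.021 (SD, n = 3), with 2 of 6 arrays above 0. The mean was 0.048 with Lmx1a RNA in Cy5 and -0.066 with it in Cy3, though both arrays of replicate 2 lay below 0. Gsr, the NADPH-dependent reductase that returns oxidised glutathione to its reduced form, gave pool means of -0.041, 0.17 and 0.076 in replicates 1, 2 and 3. Replicate 1 was below 0 on both arrays and the other pools were above 0 on all 4 of theirs. The mean of 0.070 ± 0.107 (SD, n = 3) was smaller than the spread between pools, and it was 0.018 without replicate 2 and 0.13 without replicate 1. Slc7a11, the cystine importer that feeds cysteine to the ligase, was not well above background. Its probe was detected on 1 of 6 arrays in the Lmx1a channel and on 0 in the control channel, so no fold is given.

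**Figure D2:**
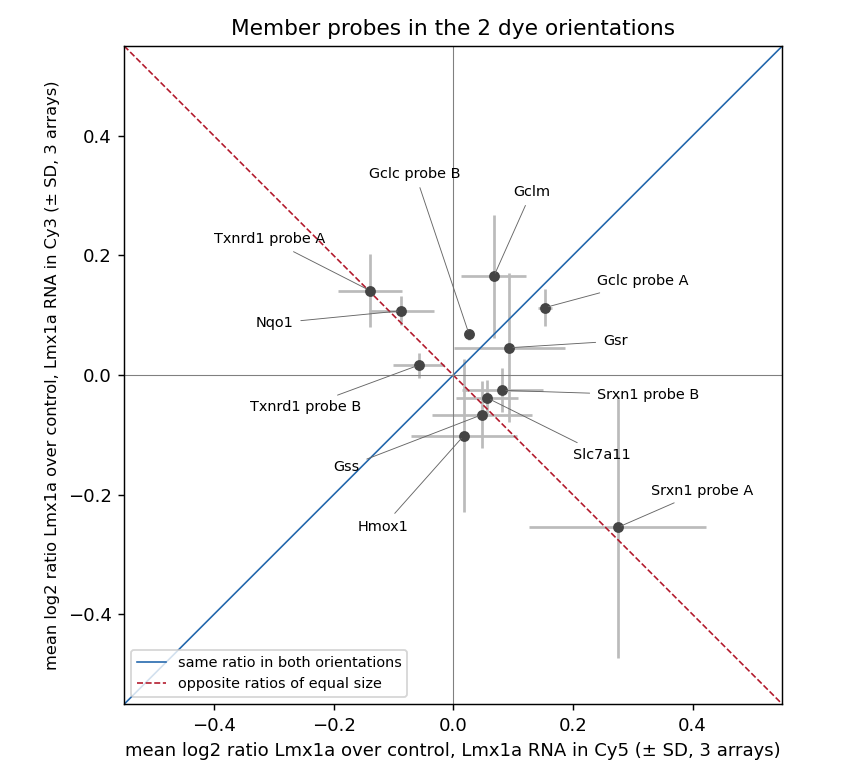
Mean log2 ratio of Lmx1a-transfected over control cells for each member probe, with Lmx1a RNA in Cy5 on 1 axis and in Cy3 on the other, over 3 arrays each. The solid diagonal marks equal ratios and the dashed diagonal opposite ratios of equal size. Gclc probe A lies near the solid line at 0.15 and 0.11, and Srxn1 probe A lies near the dashed line at 0.27 and -0.25.

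The NRF2 targets outside glutathione synthesis had mean ratios within 0.042 of 0 on the log2 scale. Nqo1, a quinone reductase, gave -0.091, -0.030 and -0.14 with Lmx1a RNA in Cy5 and 0.083, 0.11 and 0.13 with it in Cy3. The sign followed the dye on all 6 arrays and the mean was 0.010 ± 0.025 (SD, n = 3). The Nqo1 probe was also dim, being detected on 4 of 6 arrays in each channel. Hmox1, which breaks down haem, averaged -0.029, -0.16 and 0.059 in replicates 1, 2 and 3. Its mean of -0.042 ± 0.108 (SD, n = 3) was the lowest of the 12 probes and lay within the spread between pools.

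Txnrd1, the cytosolic thioredoxin reductase and a selenoprotein, was read by 2 probes. Probe A (reporter MMAA200014108) gave -0.18, -0.080 and -0.16 with Lmx1a RNA in Cy5 and 0.15, 0.19 and 0.075 with it in Cy3. As for Nqo1, the sign followed the dye, and the mean was 0.00096 ± 0.050 (SD, n = 3). Probe B (reporter MMAA200015305) was not well above background, being detected on 0 of 6 arrays in the Lmx1a channel and on 1 in the control channel.

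Srxn1, sulfiredoxin, which restores overoxidised peroxiredoxins, was also read by 2 probes. Probe A (reporter MMAA200012010) had the widest range of the members, with 0.11, 0.39 and 0.32 when Lmx1a RNA was in Cy5 and -0.015, -0.30 and -0.44 when it was in Cy3. The arrays again divided by dye, and the mean over pools was 0.010 ± 0.062 (SD, n = 3). Probe B (reporter MMAA300020853), detected on all 6 arrays, gave pool means of 0.045, -0.030 and 0.071 and a mean of 0.028 ± 0.052 (SD, n = 3). The probes differed by -0.018 ± 0.105 (SD, n = 3, A minus B), less than the spread between pools. The Srxn1 promoter window is shown because, alone among the 12 windows, it holds the AP-1 motif TGANTCA, whose letters can overlap those of the core above. It does so at 2 places, in capitals, beginning 102 and 45 bases before the start.
Srxn1, chr2:152105397-152105510 (+): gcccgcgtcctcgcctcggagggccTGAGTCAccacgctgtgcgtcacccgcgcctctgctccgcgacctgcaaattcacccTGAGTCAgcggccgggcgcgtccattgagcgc
This motif was present in 7.81% of all windows, and it overlapped TGACNNNGC in 0 of the 12 member windows. That count covers TGACNNNGC only as written. The site 45 bases before the Srxn1 start reads on as TGAGTCAgc, which is TGACNNNGC with G for the C after TGA. That form was not searched for in any window. The TGACNNNGC core of Srxn1 lies 28 bases after the start and is not printed.

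The dye contrast, Cy5 over Cy3, was independent of the contrast in view when the genes were chosen and was tested across all probes. In limma's fit of the 3 pools with Benjamini-Hochberg adjustment, 3 of 12 member probes were called, against 6.8% of all probes. Of these, 1 was brighter in Cy5 and 2 in Cy3, against 2.65% and 4.15% of all probes. Brighter here means after loess, so relative to probes of like brightness, and not in net units. The replicate block fit called the same 3, against 8.22%. Txnrd1 probe A was brighter in Cy3 in this sense, with a log2 Cy5 over Cy3 of -0.14 ± 0.026 (SD, n = 3) and a limma adjusted p of 0.00993. Its net brightness before loess was higher in Cy5 on every array. The replicate 1 array with Lmx1a RNA in Cy5 had 2394.7 units in Cy5 and 1423.4 in Cy3. Nqo1 was brighter in Cy3 too, at -0.097 ± 0.034 (SD, n = 3) and a limma adjusted p of 0.0337. Srxn1 probe A was brighter in Cy5, at 0.26 ± 0.177 (SD, n = 3) and a limma adjusted p of 0.0438. For each of these 3 probes the dye difference exceeded the mean ratio of Lmx1a-transfected over control cells. For Gclc probe A the order was the reverse, with a dye difference of 0.020 ± 0.012 (SD, n = 3, limma adjusted p = 0.468) beside a ratio of 0.13. For Gclm the dye difference was -0.049 ± 0.050 (SD, n = 3, limma adjusted p = 0.221). These dye calls were lost under some processing alternatives, whose values stand in the closing section.

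Other genes of the pathway were grouped in 7 lists of 106 genes, of which 99 were measured and 72 were detected on all 6 arrays. Of the 99, 37 had a mean ratio above 0, and their median was -0.0075, against 51.5% above 0 and a median of 0.00093 for all genes. The limma fit of 3 pools called 0 of them, with 8 higher and 14 lower in Lmx1a-transfected cells at an unadjusted p under 0.05, against 6.23% and 5.56% of all probes. These shares are not like for like. Each list gene stands by its brightest probe, whereas all probes include dim ones, with 44.9% detected on all 6 arrays. The replicate block fit called 0 higher, against 0.299% of all probes, and 1 lower, against 0.749%. That gene was Gstk1, a mitochondrial and peroxisomal glutathione transferase, at -0.097 ± 0.014 (SD, n = 3) and below 0 on 6 of 6 arrays. Its value was -0.028 when arrays were only centred on their median.

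Among 12 NRF2 regulators, 3 lay above 0 with a list median of -0.0091. NRF2's own gene, Nfe2l2, averaged -0.0055 ± 0.014 and that of its repressor, Keap1, -0.030 ± 0.022 (SD, n = 3). Keap1 had 2 probes, and the value is that of the brighter. Cul3, the scaffold of the ligase that KEAP1 serves, had the largest ratio of the 99 genes at 0.17 ± 0.076 (SD, n = 3). It was above 0 on 5 of 6 arrays, and averaged 0.083 with Lmx1a RNA in Cy5 and 0.25 with it in Cy3. Nfe2l1, an NRF2 relative, averaged -0.082 ± 0.067 (SD, n = 3) and was above 0 on 1 of 6 arrays.

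The 14 genes of cysteine supply and of glutathione breakdown and export had a median of -0.0060, and 6 lay above 0. Ggct and Chac1, which both act in glutathione breakdown, had the ratios furthest from 0 in this list. Ggct averaged -0.10 ± 0.063 and Chac1 -0.093 ± 0.10 (SD, n = 3), each above 0 on 1 of 6 arrays, and Chac1 was -0.038 without replicate 2. Of 24 measured glutathione peroxidases and transferases, 9 lay above 0, with a median of -0.015. Gstp1 averaged -0.12 ± 0.096 (SD, n = 3), but this was -0.23 with Lmx1a RNA in Cy5 and 0.0022 with it in Cy3. Transferases of 1 class are close in sequence, and cross-hybridisation between them was not tested.

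The thioredoxin, glutaredoxin and peroxiredoxin genes, which work beside Txnrd1 and Srxn1, had 5 of 15 above 0 and a median of -0.011. Prdx2, a cytosolic peroxiredoxin and a substrate of sulfiredoxin, averaged 0.098 ± 0.033 (SD, n = 3) with 5 of 6 arrays above 0, and 0.026 when arrays were only centred on their median. Glrx2, a glutaredoxin, averaged -0.086 ± 0.057 (SD, n = 3), whereas its second probe gave -0.017. Among other NRF2 targets and genes of NADPH and iron, 7 of 15 lay above 0, with a median of -0.0030. Both named genes of that list supply NADPH. Pgd averaged 0.093 ± 0.070 (SD, n = 3) with 6 of 6 arrays above 0, and Me1 averaged 0.075 ± 0.096 (SD, n = 3) with 5 of 6. The second Me1 probe gave 0.037, and the value for Me1 was 0.025 without replicate 2.

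The selenoprotein list had 6 of 14 genes above 0 and a median of -0.018. Selenon averaged 0.10 ± 0.060 (SD, n = 3), with 0.24 when Lmx1a RNA was in Cy5 and -0.037 when it was in Cy3. Its probe was dim, being detected on 3 of 6 arrays in the control channel, and the ratio was 0.50 with plain background subtraction. Selenot averaged 0.070 ± 0.019 (SD, n = 3) and was above 0 on 6 of 6 arrays. Of 5 superoxide dismutases and catalase genes, 1 lay above 0. Sod1 averaged -0.056 ± 0.041 (SD, n = 3), with 0.015 when Lmx1a RNA was in Cy5 and -0.13 when it was in Cy3, and -0.032 without replicate 2. Ccs, its copper chaperone, averaged -0.011 ± 0.036 (SD, n = 3), with 0.039 when Lmx1a RNA was in Cy5 and -0.061 when it was in Cy3.

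**Figure D3:**
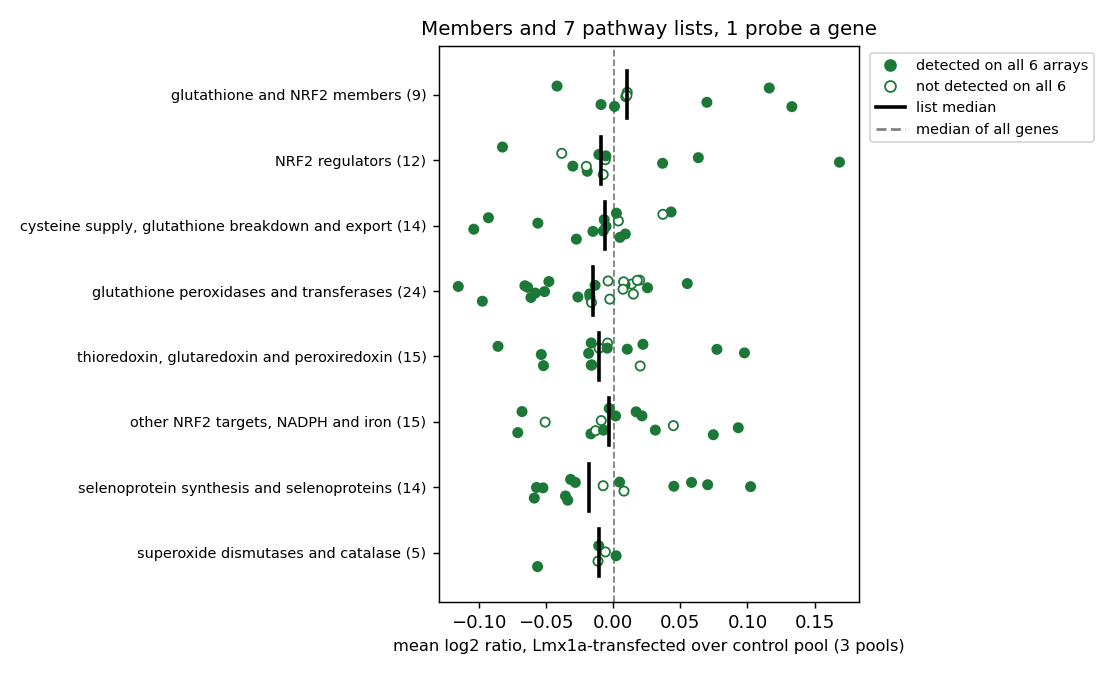
Mean log2 ratio of Lmx1a-transfected over control cells for each gene of the member set and of the 7 pathway lists, 1 point a gene, filled where detected on all 6 arrays, with list medians as bars. List medians run from -0.018 to -0.0030, beside 0.010 for the members and 0.00093 for all genes.

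The genes most like Gclc over the 6 arrays were sought among 11704 probes of other genes detected on all arrays, by the root mean square difference of the log2 ratios from those of probe A. The nearest were Egr1, an immediate early transcription factor, at 0.032, Seh1l, a nucleoporin, at 0.035, and Angel2 at 0.038. They averaged 0.13 ± 0.032, 0.12 ± 0.018 and 0.13 ± 0.035 (SD, n = 3) and were above 0 on 6 of 6 arrays. These means and signs come largely from the way the genes were picked and are not a separate result. The 6 arrays share 1 control pool, so this is likeness over 3 Lmx1a pools.

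Over 12 processing alternatives, both Gclc probes, Gclm and Gsr kept their sign in each one. Some of these outcomes were fixed beforehand. Scaling brightness between arrays leaves every ratio as it was. For both Gclc probes and Gclm, above 0 on all 6 arrays, averaging fewer arrays cannot turn the sign. Gclc probe A ranged from 0.11 to 0.17, probe B from 0.027 to 0.105, Gclm from 0.068 to 0.16 and Gsr from 0.018 to 0.13. The other 8 probes changed sign in at least 1 alternative. Txnrd1 probe A kept its sign in 6 of 12 and ranged from -0.14 to 0.14, and Srxn1 probe A kept it in 9 of 12 and ranged from -0.25 to 0.27.

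**Figure D4:**
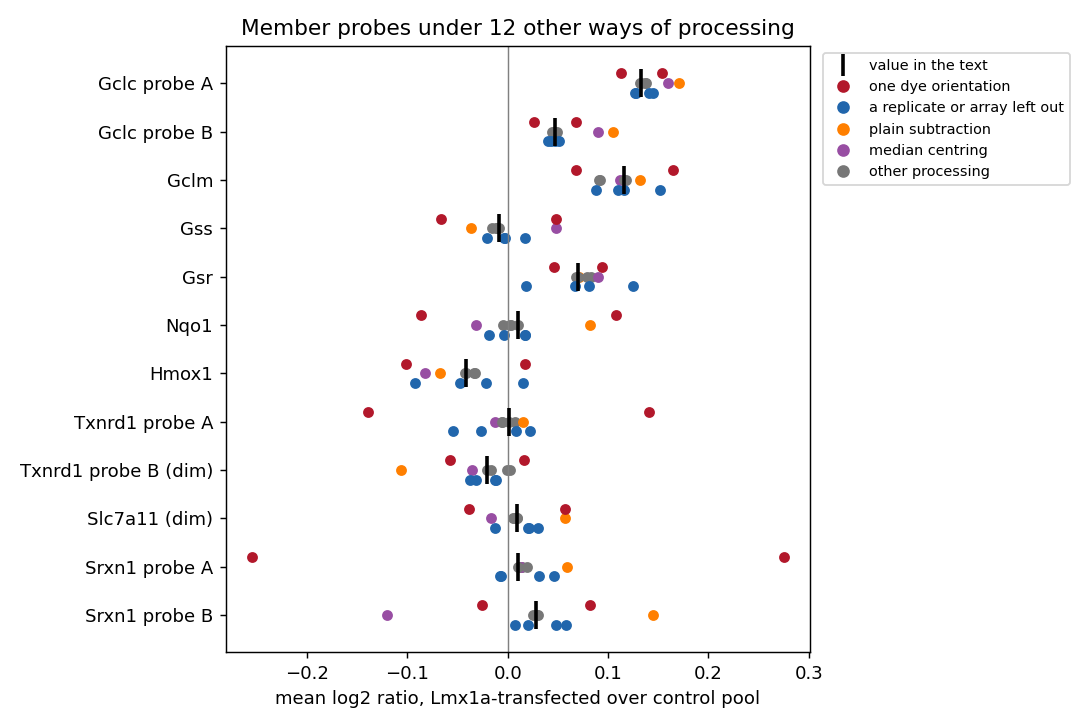
Mean log2 ratio of Lmx1a-transfected over control cells for each member probe under the processing alternatives, 1 point an alternative, with the value reported in the text marked. Both Gclc probes, Gclm and Gsr stay above 0 in all 12 alternatives, and the other probes lie on both sides of 0.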

How the data were processed

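RNA of 3 Lmx1a pools and 1 control pool was measured on 6 dye-swapped arrays. The deposited scanner tables hold spot intensity on a linear scale, with its local background, per the file headers. The scanner and its software were not given in the sources used here. Log2 ratios that the authors deposited were used as an alternative. Against the scanner values these read as Lmx1a over control on every array, with column medians of 0.0036, 0.0042 and 0.0040 (Lmx1a in Cy5, replicates 1 to 3) and -0.0014, -0.0028 and -0.0034 (Lmx1a in Cy3). Their correlation with loess within print grids, without background correction, was 0.996 to 0.999. No label states their scale or centring, which were inferred from this match.

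From the intensities, background was corrected with normexp (offset 50, which draws the ratios of dim probes toward 0) and each array was normalized by loess (span 0.3). The 3223 control spots of 34992 had weight 0 in loess and were then left out. Ratios were turned to Lmx1a over control, and the 2 arrays of a pool, being technical, were averaged. The mean of 3 pools was tested against 0 by limma (version 3.58.1, R version 4.3.3; lmFit, eBayes). P-values were adjusted by Benjamini-Hochberg over 31769 probes, with a threshold of 0.05. Cy5 over Cy3 was tested likewise. The labels do not say that pools were separate transfections, and the p-values cover only how far these pools differ, which may be technical. The number of pools, 3 of Lmx1a RNA against 1 control pool, limits the precision.

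The replicate number pairs the 2 arrays of 1 pool by design. It entered as a random block on the 6 arrays with a dye term (consensus correlation 0.0684). The other alternatives were background correction, normalization, the deposited ratios, 1 dye orientation alone, a variance trend with a robust prior, detected probes only, and leaving out each pool or the dimmest array.

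Gene names came from GEO's platform annotation. Of the 26000 named probes, 23070 symbols were current, 2865 were updated through RefSeq synonyms (GRCm38.p6) and 65 were kept. The members and lists were chosen with earlier results of these data known. The text names every member probe, Lmx1a, the 2 genes of each list with the largest absolute ratio among those detected on all arrays, and the 3 genes nearest to Gclc. Nfe2l2 and Keap1 were added after their values were seen. Marker lists for astrocytes, oligodendrocytes, microglia and leukocytes, and fibroblasts and smooth muscle had median log2 ratios of -0.018, 0.010, 0.0046 and -0.0021, against 0.0032 for dopaminergic markers. The limma fit called 0 genes in each. The replicate block fit called 1, the vesicular monoamine transporter gene Slc18a2, a dopaminergic marker at 0.20 ± 0.053 (SD, n = 3) and above 0 on 6 of 6 arrays, which exceeds the ratio of every member. Of the other cell types' markers, Slc1a2, Aldh1l1, S100b, Cnp, Mag, Mog, Cd68, Aif1, Tyrobp and Col1a2 were detected in at least 1 channel on all 6 arrays, while Gfap, Gja1, Olig1, Lum, Col3a1 and Tagln were detected in neither channel of any array.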

Additional observations from a re-analysis of the deposited data

Results flagged for a closer look

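Nqo1, Txnrd1 probe A and Srxn1 probe A gave ratios that differed with the dye of the Lmx1a RNA by the test of that difference, limma's fit of Cy5 over Cy3 on 3 pools. The log2 Cy5 over Cy3 was -0.097 for Nqo1 and -0.14 for Txnrd1 probe A, with the Lmx1a over control ratio above 0 on all 3 arrays with Lmx1a RNA in Cy3 and below 0 on all 3 with it in Cy5. It was 0.26 for Srxn1 probe A, whose arrays divided the other way. The causes were not tested. No member probe had a log2 ratio on 1 array that passed Dixon's 95% critical value for 6 samples.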

How the results depend on the processing

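The limma fit of 3 pools called 0 member probes and 0 of all probes for Lmx1a over control, with 3 member probes (all higher) and 1978 higher and 1765 lower over all probes at an unadjusted p under 0.05. For the members 1 probe, Gclc probe A, was called with only the arrays of Lmx1a RNA in Cy5, with the replicate block on 6 arrays and with the block but no dye term, and 0 in the other 13 alternatives, among them the block without the dimmest array. Over all probes the calls numbered 49 with median centring, 993 with Lmx1a RNA in Cy5 alone, 215 with it in Cy3 alone, 333 with the replicate block, 342 with the block but no dye term (chosen after seeing the data) and 91 with the block and without the dimmest array. Leaving out 1 replicate gave 0 to 1 calls, the 1 being without replicate 1. The median log2 ratio of the member genes, 0.010, was 0.059 with plain background subtraction, 0.057 with Lmx1a RNA in Cy5 alone, 0.046 with it in Cy3 alone and 0.035 with detected probes only, and 0.0082 to 0.022 without 1 replicate. Dye calls moved most. Member probes called for Cy5 over Cy3 numbered 3, against 0 with plain subtraction or with a variance trend and robust prior, 1 (Txnrd1 probe A) with loess in print grids or with detected probes only, 11 with median centring, and 1 to 2 without 1 replicate (1 without replicate 2 or 3, Txnrd1 probe A). Over all probes 2160 became 4261 without background correction, 1 with plain subtraction, 24782 with median centring, 0 with the variance trend, and 503 to 1514 without 1 replicate (722 without replicate 2 and 503 without replicate 3). The log2 Cy5 over Cy3 of Txnrd1 probe A turned to 0.54 with median centring, which by construction leaves any dependence of the dye ratio on brightness in place; the other causes were not tested. The block moved no dye call of a member. Of 360 alternative log2 ratios of single probes, 294 stayed within the spread between pools and 66 moved beyond it, as did 13 of 98 list medians. Of 31 alternative dye differences of the 3 called probes, 17 kept their call, 13 lost it and 1 reversed. Scaling brightness between arrays, 1 of the alternatives, leaves every ratio as it was, so its values in these tallies agree by construction.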
